A study of Mus musculus with 12 samples.

Results

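The plasminogen activator system genes described here are 6 mouse genes that were matched by symbol to the Ensembl identifiers of the count tables. They are the activators Plau (ENSMUSG00000021822) and Plat (ENSMUSG00000031538), the receptor Plaur (ENSMUSG00000046223), and the serpins Serpine2 (ENSMUSG00000026249), Serpinb2 (ENSMUSG00000062345) and Serpinf1 (ENSMUSG00000000753). All 6 were among the 49671 genes counted in each library and among the 18668 genes tested, for which 3 or more libraries had to exceed a count of 1. Serpinb2 reached that filter only through the serum-stimulated control siRNA treated cells, the group in which it was highest.

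NIH 3T3 cells, an established line of mouse fibroblasts, were profiled by RNA-seq in 4 groups of 3 libraries. Cells transfected with the AllStars negative control siRNA or with a single siRNA against total Lap2, the nuclear lamina-associated protein encoded by Tmpo, were kept serum-starved in 0.3% FBS or, after starvation, received 15% FBS during 45 min. All 4 groups were thus transfected cells of a single line, and the study asked how serum-responsive expression depends on Lap2. The labels number the replicates but do not say whether they came from separate cultures, so p-values measure only the spread between these samples, which may be technical.

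Plasmin is a broad serine protease that dissolves fibrin and activates other proteases and growth factors around the cell. It is cut from the zymogen plasminogen by uPA, the product of Plau, which acts mainly at the cell surface when bound to its receptor uPAR, the product of Plaur, or by tPA, the product of Plat, which works best on fibrin. Serpins such as protease nexin-1 (Serpine2) and PAI-2 (Serpinb2) stop the activators by trapping uPA or tPA in covalent complexes, whereas Serpinf1 encodes PEDF, a serpin without inhibitory activity that is known for its anti-angiogenic action. Fibroblasts use this system for migration and matrix remodelling, and Plau and Plaur are known growth factor-inducible genes.

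Libraries held 18026298 to 26265253 counts. Values below are normalized counts, that is counts per TMM-adjusted library total, multiplied by the average of these totals. Expression of the siRNA target, Tmpo, was 2822 ± 57.0 in serum-starved and 3175 ± 136 in serum-stimulated control siRNA treated cells against 1083 ± 97.3 and 706.4 ± 86.97 in the matching Lap2-depleted cells (SD, n = 3), a log2 fold change (log2FC) of -1.38 and -2.17. All 9 fibroblast markers examined were abundant in every library, although their summed level was lower in Lap2-depleted cells (514115 to 691046) than in control siRNA treated cells (834022 to 953240). Not all went with the sum. In starved cells the means of Fn1 (152224 with control, 197355 with Lap2 siRNA), Pdgfrb (6900, 7647) and S100a4 (654.7, 896.7) were higher with Lap2 siRNA. In stimulated cells those of Pdgfrb (5619, 6325) and S100a4 (568.6, 680.4) were higher. The other markers had lower means. The summed level of 6 macrophage markers was 84.1 to 125 in control siRNA treated and 146 to 179 in Lap2-depleted cells, with Itgam at 0 in all 12 libraries and Adgre1 at 0 in 11. In the same order, the sum of 4 endothelial markers was 20.6 to 37.6 and 8.26 to 20.3. That of 4 epithelial markers was 2.97 to 23.4 and 4.62 to 12.9. The part of these marker differences in the results was not tested. All groups are cells of a single line, and bulk counts do not show whether a marker changed in all or in some of the cells. Replicate 1 of the serum-starved Lap2-depleted cells stood apart from its replicates 2 and 3 (chi-square per degree of freedom 20.2 and 19.0, against 2.57 to 7.62 for the other pairs within groups). Values without it are given for the members' calls in starved Lap2-depleted cells.

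The 6 genes differed in their response to serum. Plau and Plaur rose by fitted folds of 10.1 to 27.2 within 45 min in cells with either siRNA, and Plat, Serpine2 and Serpinf1 stayed within a factor of 1.49 of their starved level. Lap2 siRNA gave smaller differences: Plaur was 1.78-fold higher in starved cells and Serpine2 1.71-fold lower, whereas in stimulated cells Plau, Plaur and Serpine2 were lower. Serpinb2 had 3 reads in starved and 39 in stimulated control siRNA treated cells, and 0 and 1 with Lap2 siRNA. The plot of normalized counts by library shows these patterns for each gene.

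**Figure D1:**
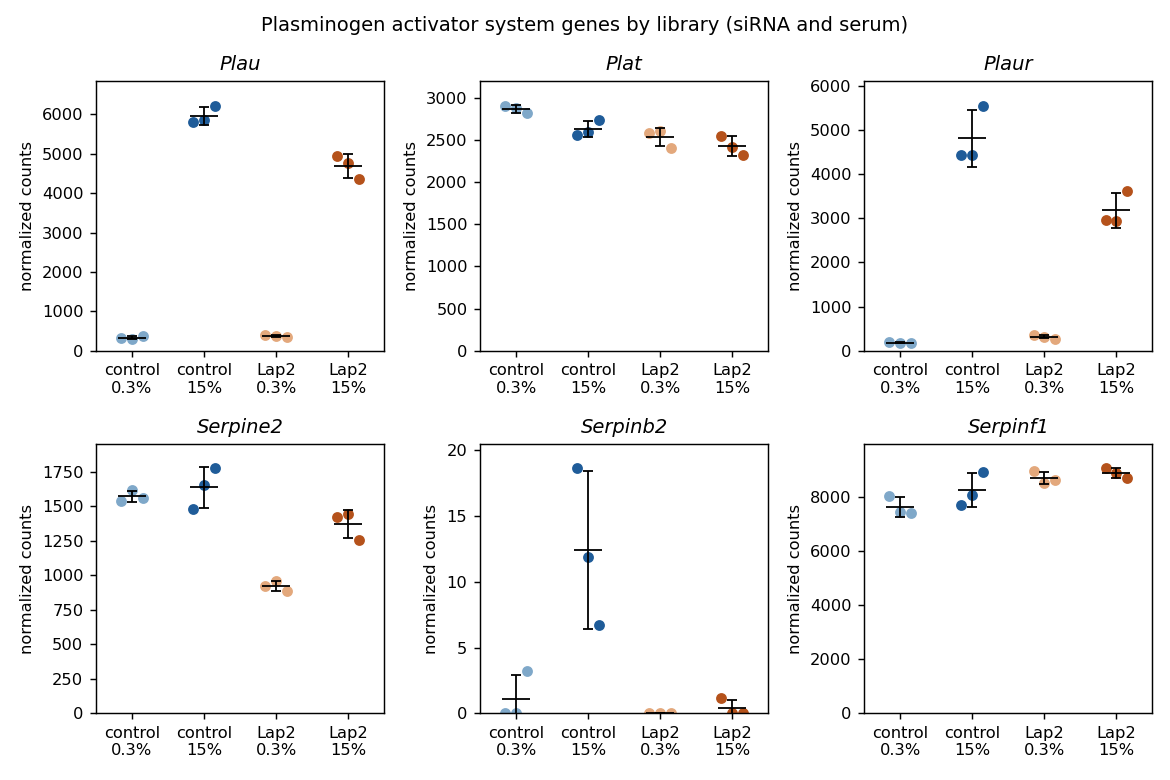
Normalized counts of the 6 genes (vertical axes, each from 0) in the 12 libraries, by siRNA and FBS concentration (horizontal axes). Points are libraries and bars are the group mean ± SD (n = 3). Plau and Plaur separate the 0.3% and 15% FBS libraries, Serpine2 is lowest in starved Lap2-depleted cells (883.8 to 958.1), and Serpinb2 exceeds 3.24 only in stimulated control siRNA treated cells.

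Plau lies on the plus strand of chromosome 14 (mm10, chr14:20836662-20843388). In serum-starved cells it had 319.9, 290.3 and 373.2 normalized counts with control siRNA, against 408.6, 373.5 and 343.0 after Lap2 depletion. After serum it had 5799, 5854 and 6224 with control siRNA, against 4951, 4773 and 4354 after Lap2 depletion. All 6 stimulated libraries lay far above all 6 starved ones, the starved groups overlapped, and the stimulated groups did not. Serum raised Plau 18.2-fold in control siRNA treated cells (95% interval 16.2 to 20.6; log2FC 4.19 ± 0.086 SE, adjusted p = 1.49e-28, edgeR's quasi-likelihood test, Benjamini-Hochberg adjusted over all tested genes, as for every adjusted p below) and 12.5-fold in Lap2-depleted cells (11.1 to 14.1; adjusted p = 6.16e-27 by edgeR). In stimulated cells Plau was 1.27-fold lower with Lap2 siRNA (log2FC -0.34 ± 0.071 SE, adjusted p = 0.000337 by edgeR). In starved cells the log2FC was 0.20 (interval 0.014 to 0.39) and missed the threshold of 0.05 (adjusted p = 0.0871 by edgeR), though it passed when replicate 3 of either starved group was left out (adjusted p = 0.0129 and 0.0311) and under scaling to total counts (adjusted p = 0.00637). Without replicate 1 of the starved Lap2-depleted cells it was 0.15 (adjusted p = 0.219 by edgeR).

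Plat, on the plus strand of chromosome 8 (mm10, chr8:22757727-22782844), was the more abundant activator in starved cells and moved little. It had 2909, 2878 and 2822 normalized counts in starved and 2562, 2598 and 2741 in stimulated control siRNA treated cells. With Lap2 siRNA it had 2588, 2609 and 2409 in starved and 2549, 2416 and 2318 in stimulated cells. The starved control libraries were the 3 highest, and the other 3 groups each overlapped a neighbour. Plat was 1.13-fold lower in starved Lap2-depleted cells (log2FC -0.18 ± 0.063 SE, adjusted p = 0.0237 by edgeR). Without the replicate that stood apart it was -0.18 (adjusted p = 0.0180). The call was lost in 4 of the 12 fits that each left out a library (adjusted p = 0.0871, 0.106 and 0.0656 without replicates 1, 2 and 3 of the starved control cells and 0.159 without replicate 3 of the starved Lap2-depleted cells) and under scaling to total counts (-0.07, adjusted p = 0.424). The serum log2FC was -0.12 with control siRNA (interval -0.25 to 0.003, adjusted p = 0.146 by edgeR) and -0.06 with Lap2 siRNA (adjusted p = 0.501 by edgeR). Scaling to total counts gave called values of -0.33 and -0.29, a scaling that by itself moved the median of all genes by -0.21 and -0.23. Upper-quartile scaling also called both (-0.22 and -0.17, adjusted p = 0.00641 and 0.0317 by edgeR), and it moved that median by -0.095 and -0.11.

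Plaur, the receptor gene, lies on the plus strand of chromosome 7 (mm10, chr7:24462484-24475968) and had the largest fitted serum response of the 6 in control siRNA treated cells. Starved control siRNA treated cells had 190.4, 171.6 and 168.3 normalized counts, and starved Lap2-depleted cells had 347.1, 320.4 and 274.0. After serum the values were 4440, 4442 and 5555 with control siRNA, against 2962, 2947 and 3628 after Lap2 depletion. None of the 4 groups overlapped another. The rise was 27.2-fold in control siRNA treated cells (23.3 to 31.7; log2FC 4.77 ± 0.11 SE, adjusted p = 2.64e-27 by edgeR) and 10.1-fold in Lap2-depleted cells (8.78 to 11.7; adjusted p = 1.03e-23 by edgeR).

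Lap2 siRNA moved Plaur in opposite directions at rest and after serum. Plaur was higher in starved Lap2-depleted cells (log2FC 0.83 ± 0.12 SE, adjusted p = 8.39e-07 by edgeR) and lower in stimulated ones (-0.60 ± 0.084 SE, adjusted p = 1.46e-06 by edgeR). Without replicate 1 of the starved Lap2-depleted cells the first value was 0.77 (adjusted p = 3.94e-06). Plaur is also expressed by macrophages. All libraries here came from a fibroblast line. The summed level of the 6 macrophage markers given above was higher with Lap2 siRNA in both serum conditions, whereas Plaur was higher only in starved cells. Of these markers Cd14 was called higher with Lap2 siRNA in starved cells (log2FC 1.51, adjusted p = 2.01e-07 by edgeR) and in stimulated cells (0.81, adjusted p = 0.000636 by edgeR), and Csf1r in starved cells (1.46, adjusted p = 0.00852 by edgeR). Ptprc and Cd68 were not called in either condition, and Itgam and Adgre1 were at 0 in 12 and 11 libraries. The part of these markers in the Plaur differences was not tested.

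The 250 bases upstream of the start of Plaur are shown because of its rise with serum. Those of Serpinb2 are shown because its few reads were most numerous in stimulated control siRNA treated cells. These reads also took it past the filter, so whether serum induces Serpinb2 is not read from them. The RefSeq promoters used here (GRCm38.p6) held 4 of the 6 genes, not Plau and Plat. Capitals mark the match to the AP-1 motif TGANTCA, the site of Fos and Jun dimers, searched on both strands and counted once because it reads the same on both. The windows are chr7:24462233-24462482 and chr1:107511173-107511422, both on the plus strand.
Plaur: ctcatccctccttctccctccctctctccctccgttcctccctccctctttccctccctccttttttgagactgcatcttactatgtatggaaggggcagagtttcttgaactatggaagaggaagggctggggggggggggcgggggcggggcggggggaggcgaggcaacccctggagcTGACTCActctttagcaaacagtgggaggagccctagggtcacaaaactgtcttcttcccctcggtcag
Serpinb2: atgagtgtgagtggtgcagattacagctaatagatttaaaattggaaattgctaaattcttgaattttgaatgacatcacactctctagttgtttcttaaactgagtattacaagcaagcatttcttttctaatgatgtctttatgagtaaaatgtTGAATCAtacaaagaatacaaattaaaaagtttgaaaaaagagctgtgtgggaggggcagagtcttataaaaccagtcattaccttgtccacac
The AP-1 match lies at -69 to -63 for Plaur and at -94 to -88 for Serpinb2, where -1 is the last base of the window. RefSeq lists a second start of Serpinb2, with the window chr1:107511260-107511509, in which the same match lies at -181 to -175. The window of the first start is shown. Plaur also has 3 GC boxes (GGGCGG) between -111 and -95, the last 2 sharing a base, and none overlaps the AP-1 match. Serpine2, whose window is 78.8% GC, has 6 GC boxes and no AP-1 match, and Serpinf1 has neither. The Serpine2 window (chr1:79858666-79858915, minus strand) lies inside the gene span given below. The Serpinf1 window (chr11:75422624-75422873, minus strand) overlaps the end of its span. No match to the TEAD motif GGAATG or to the CArG box was found in the windows of these 4 genes. Of 32851 RefSeq windows of this length, 6.75% hold an AP-1 match, 32.7% a GC box, 12.6% a TEAD match and 1.47% a CArG box. A match is a description of letters, and binding was not analysed here.

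Serpine2, on the minus strand of chromosome 1 (mm10, chr1:79794197-79861180), encodes protease nexin-1, which inhibits uPA, tPA and thrombin. It had 1543, 1619 and 1560 normalized counts in starved and 1479, 1658 and 1777 in stimulated control siRNA treated cells. After Lap2 depletion it had 920.0, 958.1 and 883.8 when starved and 1421, 1446 and 1260 when stimulated. The 2 control groups overlapped, while starved Lap2-depleted cells lay below every other library. Lap2 siRNA lowered Serpine2 1.71-fold in starved cells (log2FC -0.77 ± 0.075 SE, adjusted p = 3.37e-10 by edgeR), and by -0.76 without the replicate that stood apart. In stimulated cells the difference was 1.19-fold (-0.25 ± 0.074 SE, adjusted p = 0.0109 by edgeR). That call was lost without replicate 3 of either stimulated group (adjusted p = 0.104 and 0.0794) and under scaling to total counts (adjusted p = 0.0993).

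The serum log2FC of Serpine2 was 0.06 with control siRNA (interval -0.09 to 0.20, adjusted p = 0.644 by edgeR), with a sign that turned under total-count and upper-quartile scaling (-0.15 and -0.04) and without replicate 3 of the stimulated control cells (-0.006). With Lap2 siRNA serum raised it 1.49-fold (0.58 ± 0.076 SE, adjusted p = 1.69e-07 by edgeR).

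Serpinb2, on the plus strand of chromosome 1 (mm10, chr1:107511423-107535478), encodes PAI-2 and was at the edge of detection. Its raw counts were 0, 0 and 3 in starved and 21, 12 and 6 in stimulated control siRNA treated cells. After Lap2 depletion they were 0, 0 and 0 when starved and 1, 0 and 0 when stimulated. Each stimulated control library thus had more reads than any other library, from a total of 43 reads in 12 libraries. Summed over libraries and scaled, stimulated exceeded starved control siRNA treated cells 13.3-fold (39 against 3 reads, exact 95% interval 4.22 to 67.2) and exceeded stimulated Lap2-depleted cells 36.5-fold (39 against 1 read, 6.18 to 1480). Against starved Lap2-depleted cells, with no read, it was at least 12.9-fold higher at a floor of 3 counts over the group. These intervals cover counting error only, not the spread between libraries. Each of these ratios has the group through which Serpinb2 passed the filter as its numerator, so they are given with no reading.

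Because Serpinb2 passed the filter on low counts only through the stimulated control libraries, its comparisons with that group are not independent of the filter. Its adjusted p-values by edgeR there (0.00875 for serum with control siRNA and 0.00363 for Lap2 siRNA in stimulated cells) are therefore given with no reading, and the first was 0.0613 without replicate 1 of the stimulated control cells, the library with 21 reads. In Lap2-depleted cells a serum response could not be detected at this depth. The Serpinb2 gene overlaps Serpinb10 on the same strand, and Serpinb10 had 0 counts in all libraries. Of the other 5 members, none overlaps another of the genes counted.

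Serpinf1, on the minus strand of chromosome 11 (mm10, chr11:75409769-75422701), encodes PEDF and was the most abundant of the 6 genes in every library. It had 8030, 7437 and 7388 normalized counts in starved and 7710, 8072 and 8924 in stimulated control siRNA treated cells. With Lap2 siRNA it had 8931, 8504 and 8622 in starved and 9050, 8892 and 8695 in stimulated cells. The starved groups did not overlap, and Serpinf1 was 1.14-fold higher with Lap2 siRNA there (log2FC 0.19 ± 0.062 SE, adjusted p = 0.0156 by edgeR), with the same rounded value without the replicate that stood apart (adjusted p = 0.00737). The call was lost without replicate 3 of the starved control cells (adjusted p = 0.0517) and when the 2 starved groups were fitted alone (adjusted p = 0.0555). The serum log2FC was 0.11 with control siRNA (interval -0.01 to 0.24, adjusted p = 0.195 by edgeR) and 0.03 with Lap2 siRNA (-0.09 to 0.16, adjusted p = 0.760 by edgeR). Neither passed the threshold, and both turned negative under scaling to total counts (-0.10 and -0.20), with the second then called (adjusted p = 0.00910). In stimulated cells the Lap2 siRNA log2FC was 0.11 (adjusted p = 0.236 by edgeR), and scaling to total counts gave a called value of 0.20 (adjusted p = 0.0155 by edgeR).

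**Figure D2:**
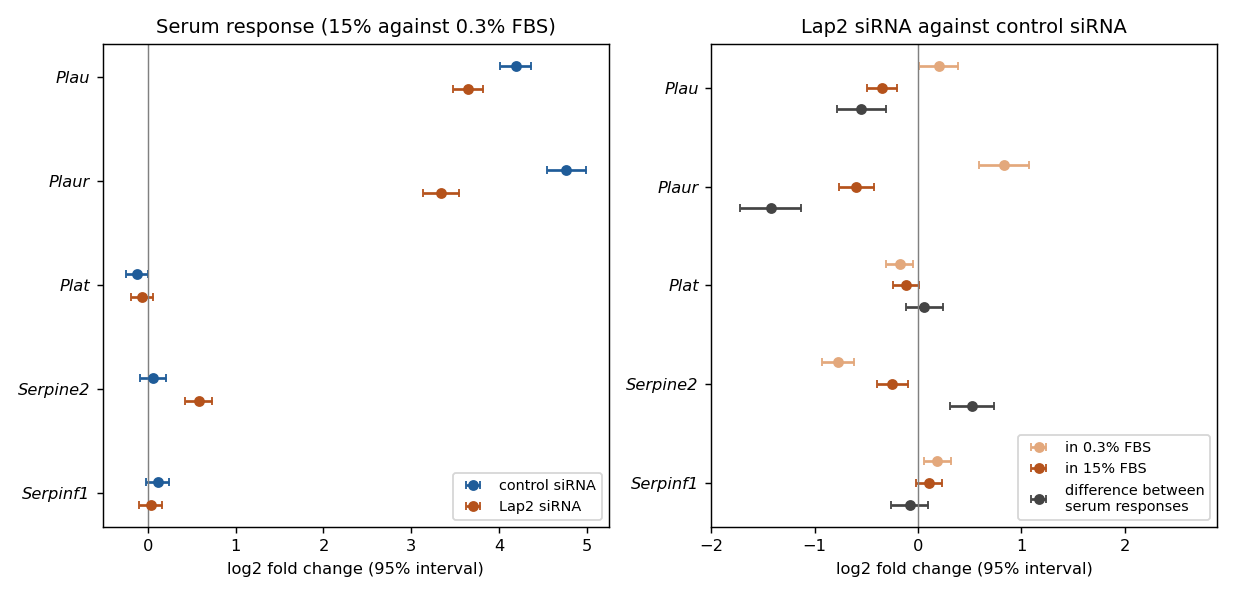
Log2 fold changes with 95% intervals from edgeR (horizontal axes) for 5 genes (vertical axes). The left panel compares 15% with 0.3% FBS for each siRNA, and the right panel compares Lap2 with control siRNA in each FBS concentration, with the difference between the serum responses in grey. Serpinb2 is left out because 2 of its groups have 0 or 1 read. Plau and Plaur sit at 3.34 to 4.77 on the left, and the grey points of Plaur, Plau and Serpine2 are at -1.43, -0.55 and 0.52.

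Serpinb2 is left out of the following counts for the reason given above. Of the other 5 members, 2 were called for serum in control siRNA treated cells (Plau and Plaur, both higher), where 29.5% of all 18668 tested genes were called and 15.6% were called higher. In Lap2-depleted cells 3 of 5 were called (Plau, Plaur and Serpine2, all higher), against 33.2% of all genes and 18.3% higher. Lap2 siRNA in starved cells gave 4 calls (Plaur and Serpinf1 higher, Serpine2 and Plat lower), against 36.5% of all genes. In stimulated cells it gave 3 calls (Plau, Plaur and Serpine2, all lower), against 23.4% of all genes and 12.1% lower. With 5 genes these counts are a description, and the comparisons share groups of libraries, so they are not independent of each other.

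The difference between the serum responses was itself tested as an interaction, called for 13.6% of all genes and for 3 of the same 5 members. The response of Plaur was smaller in Lap2-depleted cells by 1.43 on the log2 scale (-1.43 ± 0.15 SE, adjusted p = 1.08e-08 by edgeR), and that of Plau by 0.55 (-0.55 ± 0.12 SE, adjusted p = 0.00103 by edgeR). For Plaur, the higher starved level (0.83) accounts arithmetically for more of this difference than the lower stimulated level (-0.60). The response of Serpine2 was larger by 0.52 (± 0.11 SE, adjusted p = 0.000544 by edgeR). Without the library that stood apart, these 3 values were -1.37, -0.51 and 0.49, all still called, and the serum log2FC in Lap2-depleted cells was 3.40 for Plaur, 3.70 for Plau and 0.56 for Serpine2. The interaction was not called for Plat (0.06, interval -0.12 to 0.24), Serpinf1 (-0.08, -0.26 to 0.10) or Serpinb2, whose interval of -10.8 to 7.70 spans both directions. Depletion of the siRNA target also differed between the serum conditions. Tmpo had an interaction of -0.79 (adjusted p = 2.95e-06 by edgeR), with the stronger depletion in stimulated cells. The part of this in the members' interactions was not tested.

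The order of the 6 genes changed with serum. Per kb of exon, starved control siRNA treated cells had 3229 normalized counts of Serpinf1, 459.8 of Plat, 189.9 of Serpine2, 138.5 of Plau, 67.5 of Plaur and 0.459 of Serpinb2, with no overlap between neighbours. After serum, Plau (2517) and Plaur (1839) passed Plat (422.0) and Serpine2 (197.6), again with no overlap. The same order held in stimulated Lap2-depleted cells, with Plau at 1983, Plaur at 1215, Plat at 389.0 and Serpine2 at 166.0. In starved Lap2-depleted cells Serpine2 (111.1) dropped beside Plaur (119.9), whose libraries overlapped it. This last position rests on the exon lengths, since before division Serpine2 had 920.6 normalized counts there and Plaur 313.8.

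Ratios of counts per exon kb within each library do not depend on the scaling between libraries. They do depend on the lengths used, all annotated exons of a gene merged (2367 bases for Plau, 6241 for Plat and 8287 for Serpine2). Which transcripts of each gene were present was not analysed. The ratio of Plau to Plat was 0.302 ± 0.043 in starved and 5.96 ± 0.024 in stimulated control siRNA treated cells, and 0.390 ± 0.023 and 5.09 ± 0.13 in Lap2-depleted cells (SD, n = 3). Plat exceeded Plau per kb in all 6 starved libraries, and Plau exceeded Plat in all 6 stimulated ones. The ratio of Plau to Serpine2 was 0.730 ± 0.11 in starved control siRNA treated cells, where every library was below 1, and 1.43 ± 0.11 in starved Lap2-depleted cells, where every library was above 1. That crossing of 1 rests on the lengths used. Before division, Serpine2 exceeded Plau in both starved groups (1574 against 327.8 normalized counts with control siRNA, 920.6 against 375.0 with Lap2 siRNA). After serum the ratio of Plau to Serpine2 was 12.8 ± 0.82 and 12.0 ± 0.35. The ratio of Plat to Serpine2 was 2.42 ± 0.074 and 3.66 ± 0.068 in starved cells with control and Lap2 siRNA, and 2.14 ± 0.14 and 2.35 ± 0.12 in stimulated ones, where the groups overlapped.

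The receptor-to-ligand ratio, Plaur to Plau, was 0.494 ± 0.074 in starved control siRNA treated cells and 0.756 ± 0.029 in starved Lap2-depleted cells, without overlap. Serum brought it to 0.729 ± 0.068 with control siRNA and 0.618 ± 0.12 with Lap2 siRNA, and those 2 groups overlapped. Groups that do not overlap have an exact permutation p of 0.1 (two-sided), the smallest that 3 libraries against 3 allow, and 0.123 after Benjamini-Hochberg adjustment over the 16 ratio comparisons given here.

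**Figure D3:**
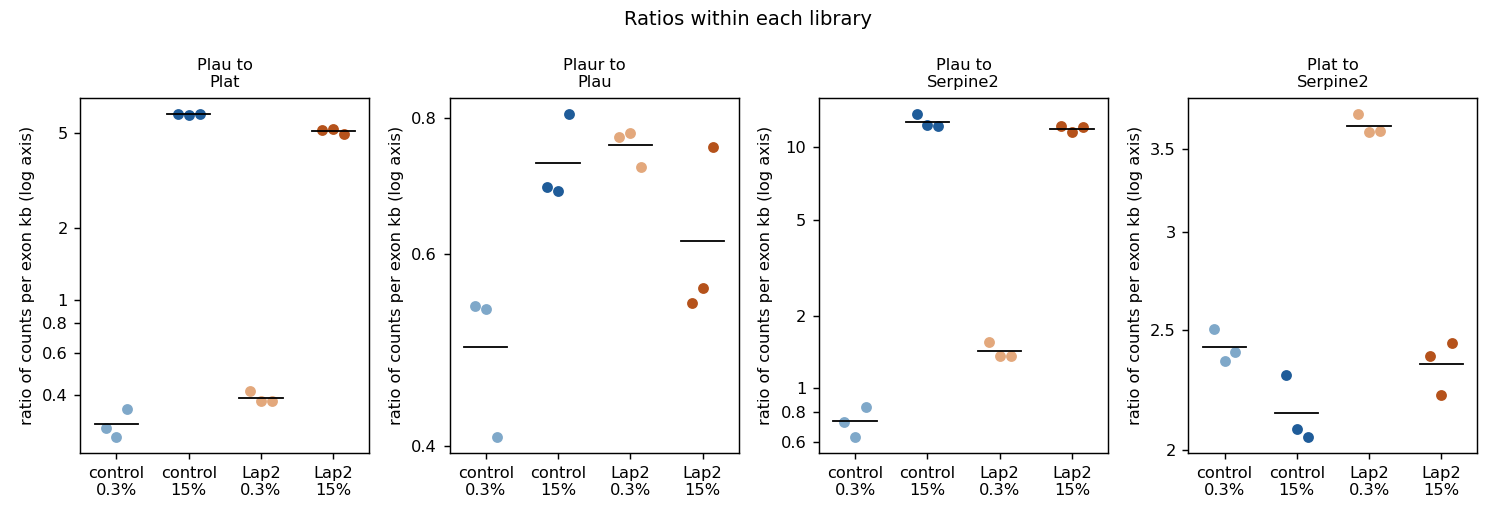
Ratios of counts per exon kb in each library (vertical log axes) by siRNA and FBS concentration (horizontal axes). Points are libraries and lines are group means. The ratio of Plau to Plat crosses 1 with serum (0.302 to 5.96 with control siRNA), whereas the ratio of Plat to Serpine2 is highest in starved Lap2-depleted cells (3.66).

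The list of other genes of the pathway held 41 genes, of which 26 were tested and 8 had no read in any library. Plg, the gene of plasminogen itself, had 3 reads in 12 libraries and was not tested. In serum-stimulated against starved cells 6 list genes were higher and 1 lower with control siRNA (median log2FC 0.06 against -0.01 over all genes). These 7 calls are 26.9% of the tested list genes, below the 29.5% called over all genes (15.6% higher, 13.9% lower). With Lap2 siRNA 8 were higher and 5 lower (0.07 against 0.003), 50% against 33.2% over all genes (18.3% higher, 14.9% lower). Lap2 siRNA in starved cells gave 7 higher and 11 lower (median -0.24 against 0.01), or 5 and 10 without the library that stood apart, where 17.8% of all genes were higher and 18.6% lower. In stimulated cells it gave 1 higher and 10 lower (-0.24 against 0.02), where 11.4% of all genes were higher and 12.1% lower. For the interaction 2 were higher and 6 lower (0.006 against 0.02), where 7.09% of all genes were higher and 6.51% lower. The list was chosen with earlier results of these data known.

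Among the pathway groups, the partners of uPAR and the receptors that take up uPA and tPA complexes held most of the lower calls. They are 12 of the 26 tested list genes. Of these 12, 8 were lower and 2 higher with Lap2 siRNA in starved cells, and in stimulated cells 9 were lower and the other 3 were not called, beside the all-gene shares of 18.6% and 12.1% lower given above. Itgb3, the integrin subunit that pairs with Itgav as a vitronectin receptor, went from 558.3 ± 16.5 to 180.7 ± 44.6 in starved cells and from 599.9 ± 12.6 to 215.0 ± 14.9 in stimulated cells (log2FC -1.63 and -1.48, adjusted p = 3.81e-13 and 8.70e-12 by edgeR). Igf2r, the cation-independent mannose 6-phosphate receptor, which can bind uPAR, fell by 1.09 and 0.91, and Vldlr, an endocytic receptor for inhibited uPA, fell by 1.03 and 0.97 on the log2 scale. Itgb1, the shared subunit of fibronectin receptors, fell by 0.61 in starved and by 0.58 in stimulated cells. Lrp1, the main uptake receptor for these complexes, was named after its values were seen and had a log2FC of -0.26 and -0.58 (adjusted p = 0.00537 and 2.21e-07 by edgeR).

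Among the named pathway genes, Itga5, the fibronectin receptor subunit, rose with serum by 2.93 on the log2 scale with control siRNA and by 1.95 with Lap2 siRNA. With Lap2 siRNA it was higher in starved cells (0.28, adjusted p = 0.00233 by edgeR) and lower in stimulated cells (-0.70, adjusted p = 3.54e-09 by edgeR). Hgf, a growth factor that uPA can activate, had 1211 ± 42.0 in control siRNA treated and 2985 ± 66.4 in Lap2-depleted starved cells (1.30, adjusted p = 5.60e-17 by edgeR) and a log2FC of 0.77 in stimulated cells (adjusted p = 2.79e-11 by edgeR).

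The remaining listed genes that passed the naming rule rested on few reads. Vtn, the gene of the matrix protein vitronectin that binds uPAR, had 74 reads over the starved and 40 over the stimulated control libraries, and 0 and 10 with Lap2 siRNA. Serpinf2, the gene of the plasmin inhibitor alpha2-antiplasmin, had 0 reads in starved and 1 in stimulated control siRNA treated cells, against 13 and 9 with Lap2 siRNA. Serpini1, which encodes neuroserpin, an inhibitor of tPA, was lower in starved Lap2-depleted cells (21.6 ± 1.71 against 9.73 ± 2.86, adjusted p = 0.0199 by edgeR).

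**Figure D4:**
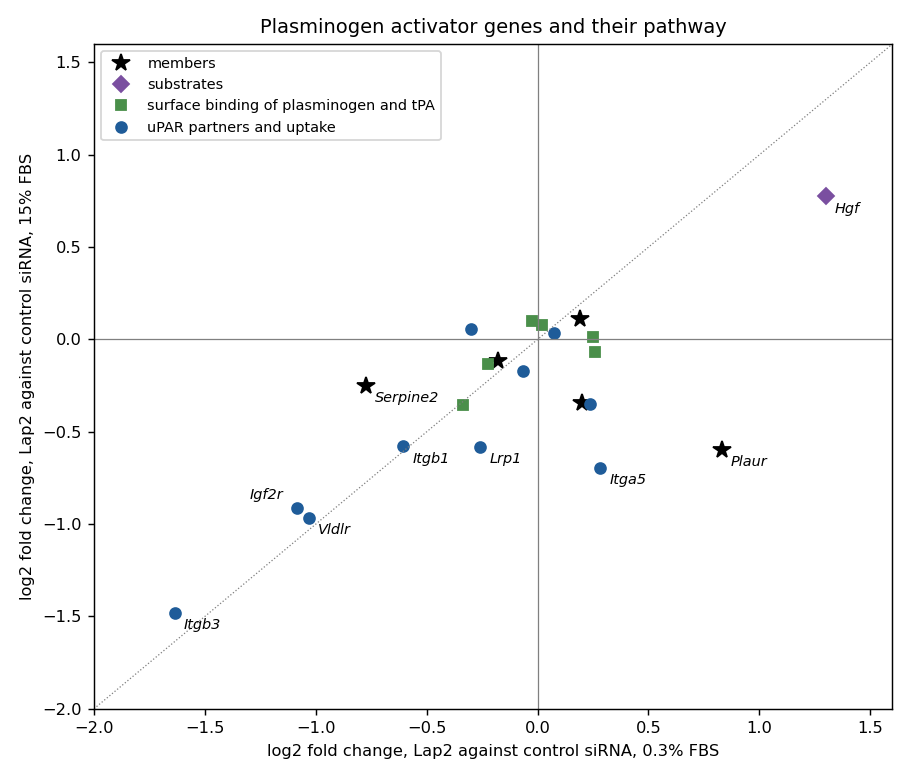
Log2 fold change for Lap2 against control siRNA in 0.3% FBS (horizontal axis) and 15% FBS (vertical axis) for 5 members (stars) and 17 pathway genes whose mean reached 100 normalized counts (symbols by group). Points on the dotted line have the same value in both, and genes with a value of 0.5 or more in size are labelled. Plaur lies at 0.83 and -0.60, whereas Itgb3, Igf2r and Vldlr lie near the line at about equal negative values.

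Across the 12 libraries, Plau and Plaur followed each other closely (Pearson r 0.991, Spearman rho 0.937), and Plat and Serpine2 did so less (0.482 and 0.622). The libraries share the serum and siRNA groups, so these values describe the pattern over groups. Among the 10444 genes whose mean reached 100 normalized counts, those most like Plau by Pearson r of log2 CPM were Errfi1 (0.999), Thbs1 and Nr4a1 (0.998 each). Those most like Plaur were Lsm11 (0.998), Azin1 (0.997) and Pdlim7 (0.997), and those most like Serpine2 were Aplp2 (0.990), Fstl1 (0.984) and Fbln5 (0.982). For Plat they were Syt11 (0.959), D10Jhu81e (0.926) and Six5 (0.926), for Serpinf1 Adpgk (0.952), Paf1 (0.926) and Cd151 (0.922), and for Serpinb2, at its low counts, Usp14 (0.918), Tubb5 (0.914) and Tent5b (0.899). By Spearman rho the leading 3 genes shared 1 gene with these for Plat and for Serpinf1 and 0 for the other members.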

How the data were processed

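Total RNA of NIH 3T3 cells was depleted of ribosomal RNA and sequenced from directional libraries. The deposited values are raw counts per Ensembl gene, which the authors made with TopHat2 alignment to mm10 and HTSeq, as the study's methods and the submitters' processing notes name them. DESeq2 is also named in those notes, and its output was not used here. Versions, annotation and strand setting of the counting are not given in the sources used here.

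The labels gave groups and replicate numbers, and the methods gave the stimulation time. Counts were fitted in R 4.3.3 with edgeR 4.0.16 (TMM, glmQLFit and glmQLFTest, a mean for each of 4 groups over all 12 libraries) on the 18668 genes that exceeded a count of 1 in 3 or more libraries, with Benjamini-Hochberg adjustment and a threshold of 0.05. The fit was tested on simulated data. Symbols were found for 99.3% of the 49671 identifiers. Exon lengths came from GENCODE M21 (mm10), and gene positions and overlaps from the coordinates given with the deposited counts. Promoter windows came from RefSeq. Intervals are 95%.

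The members and gene lists were chosen with earlier results of these data known. Genes named are the members, Tmpo, list genes called with an absolute log2FC of at least 1 for serum or 0.6 for Lap2 siRNA, and the 3 genes most like each member by Pearson r of log2 CPM (prior count 2). Of the list genes so named, 2 are not reported here. Ratios were compared by exact permutation. Tables and figures used Python 3.11.15, pandas 2.3.3, numpy 2.4.6 and matplotlib 3.10.9.

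The alternatives were DESeq2 1.42.0, scaling to total counts, upper-quartile scaling, other filters on low counts, a replicate block, fits restricted to the groups of each comparison, and each library left out in turn. With 3 libraries a group and totals of 18026298 to 26265253 counts, standard errors of the log2FC were 0.062 to 0.15 for the 5 members with more than a few reads.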

Additional observations from a re-analysis of the deposited data

Results flagged for a closer look

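Of the members other than Serpinb2, 3 had serum responses that differed between cells with Lap2 siRNA and with control siRNA. They were Plaur, Plau and Serpine2, by the interaction test of edgeR on the log2 scale, which called 13.6% of all 18668 tested genes. Serpinb2 is left out because it passed the filter only through the stimulated control cells. The difference (response with Lap2 siRNA minus response with control siRNA) was -1.43 for Plaur, the uPA receptor gene, and -0.55 for Plau, the uPA gene. It was 0.52 for Serpine2, the protease nexin-1 gene, which was raised by serum in Lap2-depleted cells. The direction was the same in all 12 fits that left out a library, with -1.54 to -1.31 for Plaur, -0.67 to -0.50 for Plau and 0.45 to 0.59 for Serpine2. These fits share libraries with each other, and no outlier test was run on groups of 3 libraries. Tmpo was depleted more strongly in stimulated than in starved cells, and the part of this was not tested.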

How the results depend on the processing

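For Plau and Plaur, serum responses, interactions and differences in stimulated cells kept their direction and stayed called under every alternative run, as did the Plaur and Serpine2 differences in starved cells. Scaling to total counts moved the median of all genes by -0.21 and -0.23 in the serum comparisons with control and Lap2 siRNA and by 0.11 and 0.09 in the Lap2 comparisons in 0.3% and 15% FBS. Under it the serum log2FC turned negative for Serpine2 (-0.15, control siRNA) and Serpinf1 (-0.10 and, with Lap2 siRNA, -0.20), 5 of the 6 genes were called for serum in Lap2-depleted cells, and the pathway list had 7 lower calls for serum with control siRNA, 5 higher and 9 lower with Lap2 siRNA, and 2 higher in stimulated Lap2-depleted cells. Upper-quartile scaling turned Serpine2 (-0.040, control siRNA) and Serpinf1 (-0.079, Lap2 siRNA) and gave 3 lower pathway calls for serum with control siRNA and 5 higher with Lap2 siRNA. Both scalings called Plat lower for serum with either siRNA. The 2 stricter filters (filterByExpr and a count above 1 in every library), under which Serpinb2 was not tested, gave 2 lower pathway calls for serum with control siRNA, and the interaction had 1 higher pathway call under the second of them and with DESeq2. The shares of all genes called under these alternatives, or with a library left out, are not given here. These counts are therefore not set against all genes. The cause of these changes was not tested.

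Over the 12 fits that left out a library, the pathway list had 1 to 2 lower calls for serum with control siRNA, 3 to 5 lower with Lap2 siRNA, and 0 to 2 higher for the interaction (0 without replicate 2 of the starved control cells). The serum log2FC of Serpine2 with control siRNA ranged from -0.0060 (without replicate 3 of the stimulated control cells) to 0.12. Calls lost or gained are given beside each gene. Deviations of same-numbered libraries from their group means correlated at -0.12 to 0.10 in 18 pairs, against -0.21 to 0.22 in 36 pairs of different number. Of 12 libraries, 3 correlated best with their own number. With 3 libraries a group these values cannot show whether same-numbered libraries were handled together. With the replicate number as a block, the numbers of the 6 genes called were 3, 3, 4, 4 and 3 for serum with control siRNA, serum with Lap2 siRNA, Lap2 siRNA in 0.3% and 15% FBS and the interaction, as without it (Serpinb2 included, which passed the filter only through the stimulated control cells), and no member's call changed. Without the block, 29.5%, 33.2%, 36.5%, 23.4% and 13.6% of all genes were called in these comparisons, and the shares with it are not given here. DESeq2 gave no adjusted p for Serpinb2 in stimulated cells, and depth limits Serpinb2 and the list genes with few reads.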

Other observations

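Among the 65 other genes whose symbols start with Serpin, 23 were tested and 27 had no read in any library. Of the 65, 6 also belong to the pathway list. Lap2 siRNA gave 4 higher and 7 lower calls in starved cells (median log2FC -0.36 against 0.01 over all genes) and 2 higher and 2 lower in stimulated cells (0.06 against 0.02), where 36.5% and 23.4% of all genes were called. Serum gave 1 higher and 4 lower calls with control siRNA and 3 higher and 1 lower with Lap2 siRNA, and the interaction 2 higher and 1 lower. These serum counts are 21.7% and 17.4% of the tested genes, below the 29.5% and 33.2% called over all genes, and the interaction count is 13.0% against 13.6%.

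Serpinb1a, which encodes an inhibitor of neutrophil-type serine proteases, fell from 184.9 ± 28.8 to 42.0 ± 7.73 normalized counts with Lap2 siRNA in starved cells (SD, n = 3; log2FC -2.12, adjusted p = 1.53e-11 by edgeR), and serum raised it in Lap2-depleted cells by 1.07 (adjusted p = 4.40e-05 by edgeR). Serpina3g had 29.2 ± 8.17 and 6.91 ± 3.35 in the same starved groups (-2.04, adjusted p = 0.000254 by edgeR), and 17.1 ± 7.67 after serum with Lap2 siRNA (1.29, adjusted p = 0.0300 by edgeR). Serpina3h (11.3 ± 2.18 against 2.64 ± 0.51, adjusted p = 0.0112 by edgeR) and Serpina3i (14 against 1 read over the group) were lower as well. Genes of the Serpina3 cluster are related in sequence, and how reads that match more than a single copy were counted is not known here. Serpinb9b was higher in starved Lap2-depleted cells (14.6 ± 1.11 against 3.19 ± 2.46, adjusted p = 0.0165 by edgeR). Serpinb5, known as maspin, was higher in stimulated Lap2-depleted cells (89.8 ± 17.97 against 52.4 ± 8.46, log2FC 0.76, adjusted p = 0.00529 by edgeR).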
